A study of Homo sapiens with 6 samples.

Results

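The S100 calcium-binding proteins were followed in HT-29 cells as 10 genes, *S100A2*, *S100A4*, *S100A6*, *S100A8*, *S100A9*, *S100A10*, *S100A11*, *S100A14*, *S100A16* and *S100P*. Each was taken as the row carrying that gene name, so that 10 of the 63241 genes listed in the expression table were used, and no symbol occurred more than once. HT-29 is an established human colorectal adenocarcinoma cell line, labelled as wild type. The 3 Amuc_0904 libraries came from cells given 0.5 μM Amuc_0904, a recombinant, tagged outer membrane protein of the gut commensal *Akkermansia muciniphila*, for 72 h. The 3 Control libraries came from cells given buffer for the same 72 h. The dose and time are those given with the study's RNA-seq, and the group and replicate are those of the sample labels. RNA-seq was used by the study to find which pathways of the cell line responded to the protein. One cell line represents the colon epithelium here, and the labels do not say whether replicates were separate cultures, so a p value measures only the spread between these libraries.

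Values are in TPM, a measure of transcript abundance corrected for transcript length that can be compared between genes and that sums to 1000000 in each library. Read counts were not used here, so the depth behind each value is unknown. Tests were made with limma on log2(TPM + 1) for the 14333 genes that reached 1 TPM in 3 or more libraries, and "rose" and "fell" are used only where the Benjamini-Hochberg p, adjusted over all of them, was under 0.05. Fold changes are on the log2(TPM + 1) scale, Amuc_0904 over Control, which understates changes of low genes.

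One library stood apart before any S100 gene was considered. On the first principal component, which held 35.5% of the variance over the tested genes, Amuc_0904 replicate 1 lay at -4.79, replicates 2 and 3 lay at 20.4 and 22.8, and the Control libraries lay between -13.04 and -12.4. On the second, which held 19.6%, Amuc_0904 replicate 1 lay at -22.7 and all other libraries lay between -2.78 and 15.3. The share of TPM from mitochondrially encoded genes was 12.95% for Amuc_0904 replicate 1, 10.6% for replicate 2 and 11.1% for replicate 3, against 12.8% to 13.5% in Control. Results are therefore given with all 6 libraries and also without Amuc_0904 replicate 1. Among markers of colon epithelium 9 of 10 passed the filter, with a summed level of 7148 to 7979.7 TPM in Amuc_0904 and 7135 to 7179 TPM in Control. The largest values were of *KRT8* (mean 3095 TPM in Amuc_0904, 2726 TPM in Control) and *KRT18* (2107 and 1966 TPM). *CDX1*, which did not pass, and *CDX2* were low, at 0.50 to 1.36 TPM and 0.46 to 1.71 TPM over the libraries. Each of the others measured at least 59.0 TPM in every library. These genes were named after their values were seen. The labels name the cell type as enterocyte. Of 10 enterocyte markers 7 were under 1 TPM in every library, and *FABP2*, *APOA4*, *CA1* and *AQP8* were listed at 0 in all of them. The 3 tested were *FABP1*, *CA2* and *ANPEP*. *FABP1* measured 131 to 149 TPM in Amuc_0904 and 117 to 131 TPM in Control. *CA2* measured 44.7 to 50.9 TPM in Amuc_0904 and 41.4 to 45.2 TPM in Control. *ANPEP* was low, at 0.52 to 1.77 TPM in Amuc_0904 and 0.39 to 1.43 TPM in Control.

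S100 proteins are small proteins, found in vertebrates, that carry a pair of helix-loop-helix calcium sites called EF-hands and usually work as dimers. On binding calcium most of them open a hydrophobic face and dock onto partners such as annexins, myosin and p53. Several also leave the cell and act on receptors, RAGE (*AGER*) and TLR4 among them. In the gut they are best known through calprotectin, the S100A8 and S100A9 pair of neutrophils that is measured in stool as a sign of inflammation, and through *S100P* and *S100A4*, which are often raised in carcinomas.

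The calcium loop of the C-terminal EF-hand is the feature that the family shares and that separates its members. It runs over 12 codons, and a loop was searched for in the coding sequence as an aspartate codon first, aspartate, asparagine or serine at the third codon, one of these or glycine at the fifth, and glutamate at the twelfth. The 36 bases of the loop were read from GENCODE v29 transcripts (GRCh38) and are shown for the 8 of 10 genes in which a loop was found, with the first and last codon, both of which hold the calcium ion, in capitals.
S100A2: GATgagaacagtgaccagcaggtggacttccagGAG
S100A4: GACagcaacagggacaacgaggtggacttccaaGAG
S100A6: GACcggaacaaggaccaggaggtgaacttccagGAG
S100A8: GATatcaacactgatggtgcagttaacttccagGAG
S100A9: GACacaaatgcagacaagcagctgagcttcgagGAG
S100A11: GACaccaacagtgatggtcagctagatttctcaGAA
S100A16: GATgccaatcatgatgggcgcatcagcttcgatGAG
S100P: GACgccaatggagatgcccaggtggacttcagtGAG
No such loop was found in *S100A10* or *S100A14*, with coding sequences of 294 and 315 bases. S100A10 is known as the family member that has lost calcium binding and stays in its open form. No stretch of 75 bases in any of the 10 genes' transcripts also occurred in a transcript of another gene on either strand, so reads of that length would not be shared.

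Of the 10 genes 8 passed the filter, *S100A8* was listed at 0 in every library, and *S100A9* reached 1 TPM in 1 Control library only. With all 6 libraries, none of the 8 rose and none fell by limma, where 0.0698% of all tested genes rose and 0.167% fell. At an unadjusted p under 0.05, 2 were higher (*S100A10* and *S100A16*, where 9.95% of all tested genes were higher) and 2 were lower (*S100P* and *S100A14*, where 5.87% of all tested genes were lower). By mean 6 were higher and 2 lower, where 7225 of the 14333 tested genes were higher and 7108 lower. The median log2 fold change of the 8 was 0.19, beside 0.0015 over all tested genes. The Amuc_0904 and Control libraries did not overlap, with Amuc_0904 higher, for 1 of the 8 (*S100A10*, 13.4% of all tested genes) and, with Amuc_0904 lower, for 2 of the 8 (*S100P* and *S100A14*, 7.59% of all tested genes).

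In the S100 genes Amuc_0904 replicate 1 differed from replicates 2 and 3, as it did on the principal components over all tested genes. In replicate 1, 1 of the 8 tested genes lay above every Control library, 3 lay within the Control range and 4 below it. The share of all tested genes in each position was not counted for replicate 1, so these positions are not read as particular to the S100 genes. In replicate 2, 6 lay above and 2 below, and in replicate 3 likewise 6 lay above and 2 below. The genes were the same in replicates 2 and 3: *S100A2*, *S100A4*, *S100A6*, *S100A10*, *S100A11* and *S100A16* above, and *S100A14* and *S100P* below. Of all tested genes 22.8% had both of these libraries above every Control library and 28.4% had both below. When replicate 1 was left out, 5 of the 8 rose (9.34% of all tested genes rose in that fit) and 2 fell (8.85% fell). The median log2 fold change of the 8 without that library was 0.30, beside -0.028 over all tested genes. The part of that library's composition in these values was not tested.

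**Figure D1:**
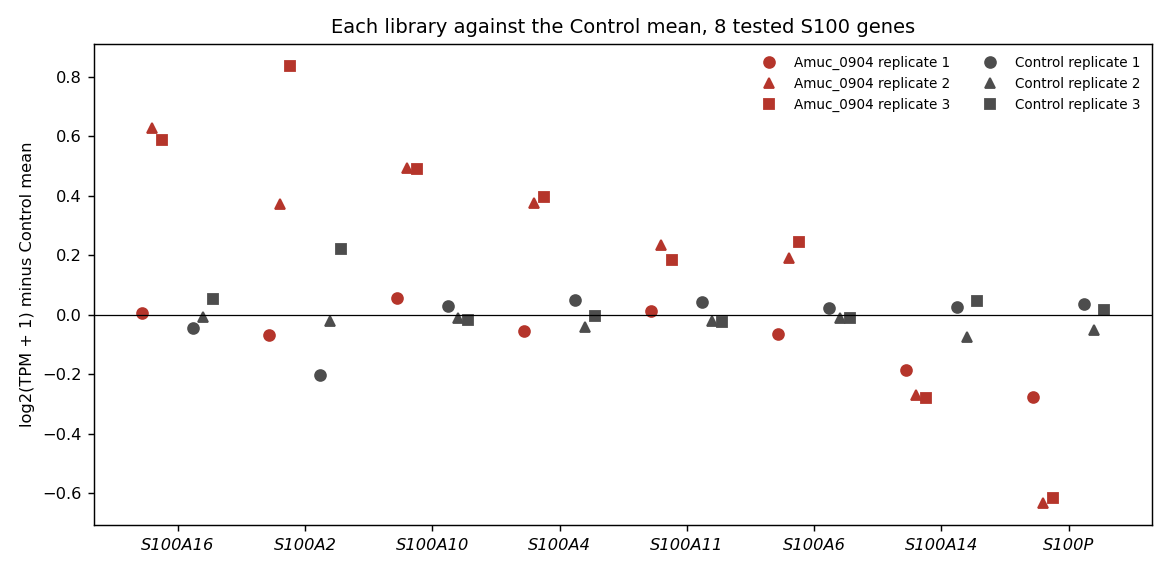
Each library's log2(TPM + 1) minus the Control mean (vertical axis, log2 units) for the 8 tested S100 genes (horizontal axis, ordered by fold change), red symbols for Amuc_0904 and grey for Control, with the marker shape giving the replicate number. Amuc_0904 replicates 2 and 3 lie outside the Control range for all 8 genes, whereas replicate 1 lies within that range for 3 genes and is closest to the other Amuc_0904 libraries for *S100A14*.

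*S100P*, the placental S100 protein that binds ezrin and is a ligand of RAGE, had the smallest p of the family. It measured 1478, 1154 and 1167 TPM in the 3 Amuc_0904 libraries, against 1834, 1728 and 1809 TPM in Control. All 3 Amuc_0904 libraries lay below all 3 Control libraries, and replicate 1 lay between the other Amuc_0904 libraries and Control. The means were 1266 ± 183 TPM and 1791 ± 55.2 TPM (SD, n = 3 each). The log2 fold change was -0.51 ± 0.10 (SE, 95% interval -0.73 to -0.28), with a limma p of 0.0010 and an adjusted p of 0.1496, which did not pass. Without Amuc_0904 replicate 1 *S100P* fell by 0.62 on the log2 scale (limma adjusted p 0.000361). The adjusted p ran between 0.000361 and 0.482 over 16 alternatives and passed in 2 of them.

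*S100A14* encodes a member found mainly in epithelia that binds calcium weakly. Its level was 133, 126 and 125 TPM in Amuc_0904, against 155, 144 and 157 TPM in Control. Here the 3 Amuc_0904 libraries lay close together, replicate 1 included, and all were below Control. *S100A14* had a log2 fold change of -0.25 ± 0.05 (SE, 95% interval -0.37 to -0.12; limma adjusted p 0.1996). Without replicate 1 it fell by 0.28 on the log2 scale (limma adjusted p 0.00998, in a range of 0.00998 to 0.546 over 16 alternatives).

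*S100A10*, known as p11, pairs with annexin A2 at the plasma membrane and brings ion channels and plasminogen there. It measured 938, 1271 and 1268 TPM in Amuc_0904, against 921, 896 and 892 TPM in Control. The groups did not overlap, but replicate 1 of Amuc_0904, at 938 TPM, lay just above the highest Control library, at 921 TPM, and far below replicates 2 and 3. The log2 fold change of *S100A10* was 0.35 ± 0.12 (SE, 95% interval 0.08 to 0.62; limma adjusted p 0.258). It rose without replicate 1, by 0.49 on the log2 scale (limma adjusted p 0.000361, in a range of 0.000361 to 0.592 over 16 alternatives).

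*ANXA2*, the annexin partner of S100A10, was measured in the same libraries at 1119.7, 1500.4 and 1476 TPM in Amuc_0904, against 1103, 1091 and 1115 TPM in Control. As for *S100A10*, replicates 2 and 3 of Amuc_0904 were highest, replicate 1 came next and the Control libraries were lowest. Its log2 fold change was 0.29 ± 0.11 (SE, limma adjusted p 0.278), and without replicate 1 it rose by 0.43 (limma adjusted p 0.000411, in a range of 0.000411 to 0.609 over 16 alternatives). The ratio of *S100A10* to *ANXA2* within a library does not depend on how the library was scaled. That ratio was 0.838, 0.847 and 0.859 in Amuc_0904, against 0.835, 0.821 and 0.80 in Control. The 3 Amuc_0904 libraries lay above the 3 Control libraries by a mean of 0.05 on the log2 scale (exact two-sided permutation p = 0.1, the smallest that 20 groupings of 3 against 3 allow).

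**Figure D2:**
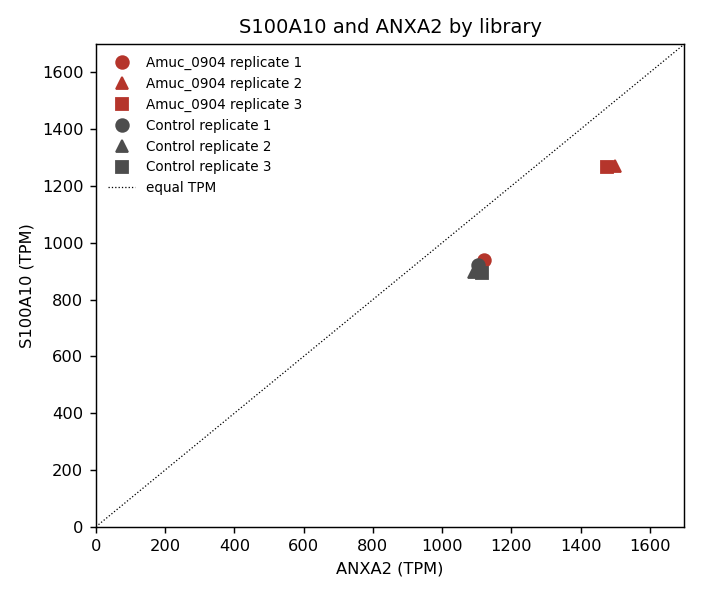
*S100A10* against *ANXA2* in each library (both axes in TPM, from 0), red symbols for Amuc_0904 and grey for Control, with the dotted line marking equal TPM. Amuc_0904 replicates 2 and 3 stand together at 1271 and 1268 TPM of *S100A10*, whereas Amuc_0904 replicate 1, at 938 TPM, lies close to the Control libraries and just above the highest of them on both axes.

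*S100A11* encodes calgizzarin, the partner of annexin A1. The 3 Amuc_0904 libraries held 960, 1120.5 and 1079.9 TPM, against 980.4, 938 and 936 TPM in Control. Replicate 1 of Amuc_0904 fell inside the Control range, and replicates 2 and 3 were above it. For *S100A11* the log2 fold change was 0.14 ± 0.06 (SE, 95% interval -0.01 to 0.30; limma adjusted p 0.335). With quantile normalization it was 0.02, and without replicate 1 it rose by 0.21 (limma adjusted p 0.00840, in a range of 0.00840 to 0.8285 over 16 alternatives). *ANXA1* stood at 227, 281 and 279 TPM in Amuc_0904, against 254, 249.6 and 257 TPM in Control. Its log2 fold change of 0.04 ± 0.09 (SE, limma adjusted p 0.837) turned to -0.05 with quantile normalization and to -0.01 without Amuc_0904 replicate 2 and -0.0042 without replicate 3, and *ANXA1* rose by 0.14 without replicate 1 (limma adjusted p 0.0160, in a range of 0.01597 to 0.9963 over 16 alternatives).

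*S100A6*, or calcyclin, was the most abundant S100 transcript and ranked 47th of all listed genes by its Control mean. It measured 2753, 3285 and 3409 TPM in Amuc_0904, against 2925, 2854 and 2853 TPM in Control. The group ranges overlapped because Amuc_0904 replicate 1 was the lowest of the 6 libraries, while replicates 2 and 3 were the highest. For *S100A6* the log2 fold change was 0.12 ± 0.08 (SE, 95% interval -0.06 to 0.31; limma adjusted p 0.481). Without replicate 3 it was 0.06, and without replicate 1 *S100A6* rose by 0.22 (limma adjusted p 0.00359, in a range of 0.00359 to 0.841 over 16 alternatives). *CACYBP*, which encodes calcyclin-binding protein, stood at 128, 125 and 148 TPM in Amuc_0904, against 85.5, 111 and 111 TPM in Control. Its 3 Amuc_0904 libraries, replicate 1 included, were above all Control libraries, with a log2 fold change of 0.39 ± 0.12 (SE, limma adjusted p 0.242).

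*S100A4*, also called metastasin, binds the heavy chain of non-muscle myosin IIA and regulates cell motility. It was at 901, 1215 and 1231 TPM in Amuc_0904, against 967, 908 and 932 TPM in Control. As for *S100A6*, replicate 1 of Amuc_0904 was the lowest library and replicates 2 and 3 the highest. The difference gave *S100A4* a log2 fold change of 0.24 ± 0.12 (SE, 95% interval -0.04 to 0.51; limma adjusted p 0.370). With quantile normalization it was 0.16, and without replicate 1 it rose by 0.39 (limma adjusted p 0.00168, in a range of 0.00168 to 0.717 over 16 alternatives).

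*S100A16* encodes an S100 protein expressed in most human tissues. Its values were 105, 162 and 158 TPM in Amuc_0904, against 101, 104 and 108 TPM in Control. Replicate 1 of Amuc_0904 again lay inside the Control range. *S100A16* had a log2 fold change of 0.41 ± 0.16 (SE, 95% interval 0.04 to 0.77; limma adjusted p 0.288), the highest of the 8, and without replicate 1 it rose by 0.61 (limma adjusted p 0.000873, in a range of 0.000873 to 0.619 over 16 alternatives).

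*S100A2* is an epithelial gene whose product binds p53, and it was the lowest of the tested members. Its level was 6.30, 8.91 and 12.7 TPM in Amuc_0904, against 5.66, 6.55 and 7.92 TPM in Control. The Control libraries themselves were spread widely, and only Amuc_0904 replicates 2 and 3 were above all of them. *S100A2* had a log2 fold change of 0.38 ± 0.23 (SE, 95% interval -0.15 to 0.91; limma adjusted p 0.445). It did not pass without replicate 1 either (log2 fold change 0.60, limma adjusted p 0.0643) or in any of the 16 alternatives, and without Amuc_0904 replicate 3 the log2 fold change was 0.15. The adjusted p ran between 0.0643 and 0.824 over these alternatives.

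The calprotectin genes were near or at the bottom of the scale. *S100A8* was listed at 0 TPM in all 6 libraries. *S100A9* was listed at 0, 0.160 and 0 TPM in Amuc_0904, against 1.59, 0.690 and 0.840 TPM in Control. All Control values of *S100A9* were above all Amuc_0904 values, but the gene was under the filter and was not tested. Myeloid and neutrophil cells, where both genes are abundant, were checked through 12 markers. Of these, 8 were under 1 TPM in every library and 3 (*ELANE*, *SPI1* and *TYROBP*) were listed at 0 throughout, while *LYZ*, which intestinal secretory cells also express, made up nearly all of the list's sum of 2490.3 to 2709 TPM in Amuc_0904 and 2594 to 2637 TPM in Control. Of the 4 tested markers 2 were higher and 2 lower by mean, with log2 fold changes of 0.03 for *ITGAM*, 0.01 for *LYZ* and -0.13 for *CD68* (limma adjusted p 0.962, 0.922 and 0.772). The fourth, *CD14*, was at 2.79, 1.89 and 2.85 TPM in Amuc_0904, against 4.74, 4.76 and 4.65 TPM in Control (log2 fold change -0.72, limma adjusted p 0.1496). Without Amuc_0904 replicate 1 *CD14* fell by 0.78 on the log2 scale (limma adjusted p 0.0153, in a range of 0.0128 to 0.485 over 15 alternatives). These 4 markers were named after their values were seen. The libraries were made from cultured HT-29 cells, an epithelial carcinoma line, rather than from tissue. What set the *S100A9* and *CD14* values was not tested. In bulk RNA of such a line, fewer cells that express a gene and less RNA per cell cannot be told apart.

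**Figure D3:**
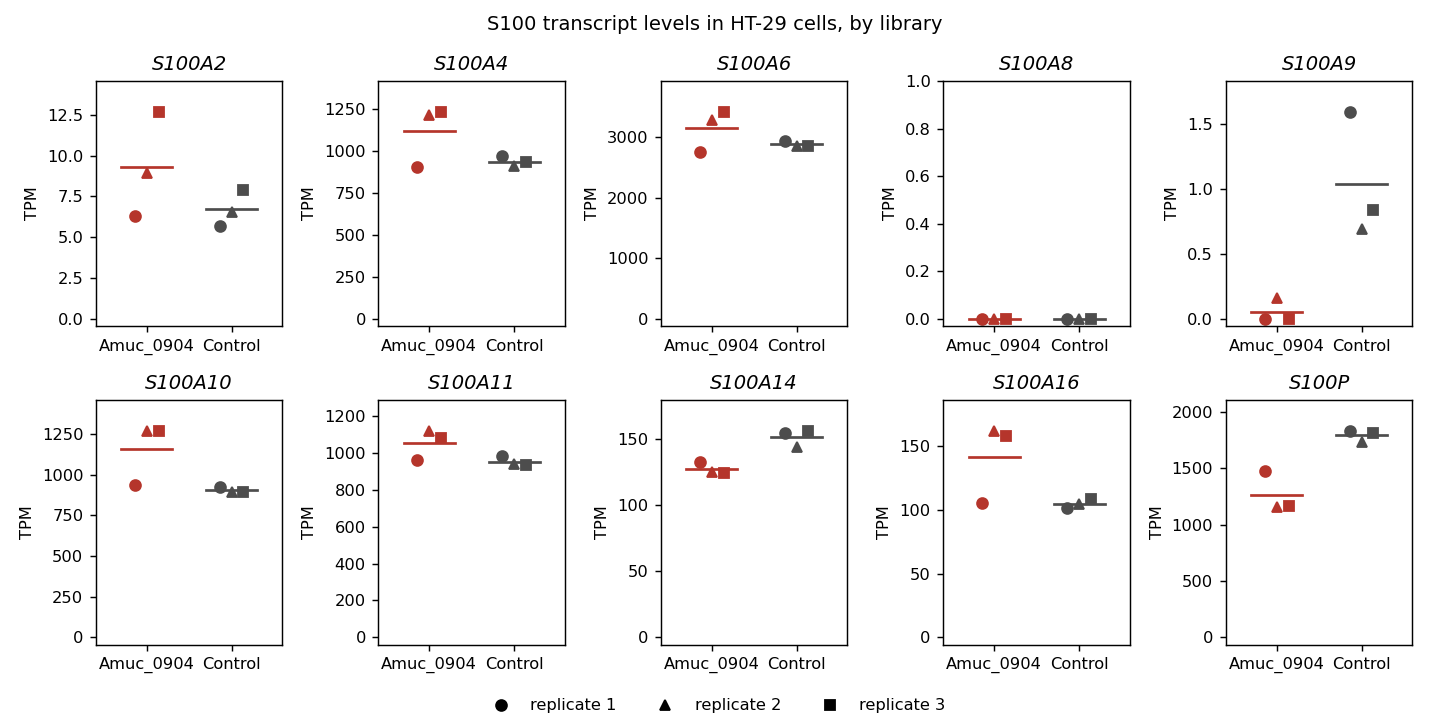
TPM of the 10 S100 genes by library, Amuc_0904 in red on the left and Control in grey on the right of each panel, with horizontal lines for group means and marker shapes for replicate numbers; every axis starts at or just under 0. For *S100P* and *S100A14* all Amuc_0904 libraries lie below Control, for *S100A10* all lie above, and *S100A8* is at 0 throughout.

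The S100 pool was described by its size and by the shares of *S100P* and *S100A6*. The 10 genes summed to 7274, 8342 and 8449.6 TPM in Amuc_0904, against 7890.4, 7580.0 and 7696 TPM in Control, which is 0.727% to 0.845% of all TPM in Amuc_0904 and 0.758% to 0.789% in Control. Amuc_0904 replicate 1 had the smallest sum of the 6 libraries and replicates 2 and 3 had the largest. *S100P* gave 20.3%, 13.8% and 13.8% of the sum in Amuc_0904, against 23.2%, 22.8% and 23.5% in Control. *S100A6* gave 37.8%, 39.4% and 40.3% in Amuc_0904, against 37.1%, 37.7% and 37.1% in Control. In Control *S100P* was the second most abundant member after *S100A6*, and in Amuc_0904 replicates 2 and 3 *S100A10* and *S100A4* lay above it. These sums are a description of chosen genes and were not tested.

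**Figure D4:**
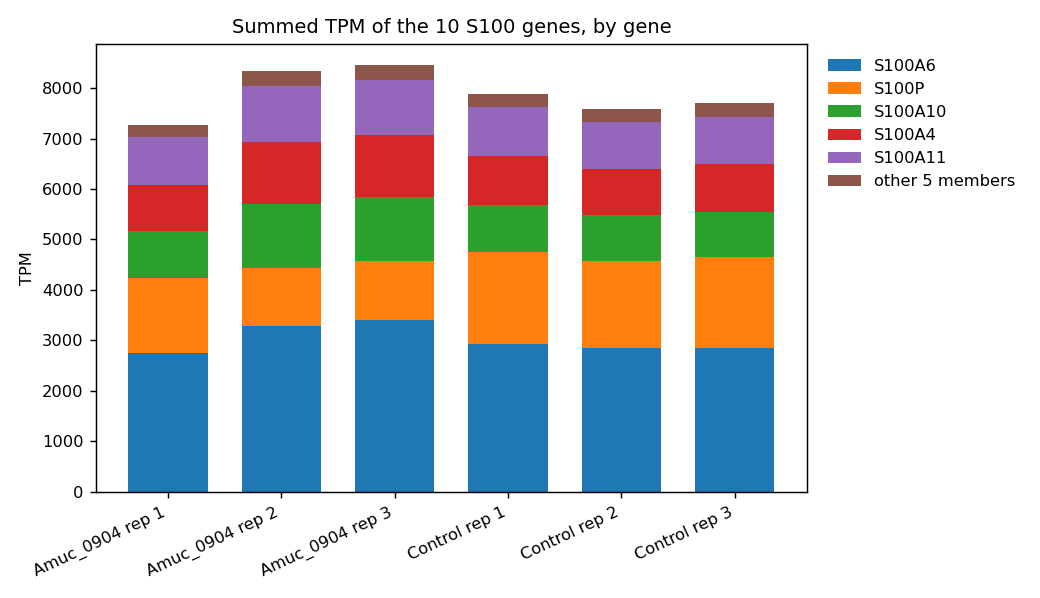
Summed TPM of the 10 S100 genes in each library (vertical axis, from 0), stacked by gene, with the 3 Amuc_0904 libraries on the left and the 3 Control libraries on the right. The *S100P* segment is 20.3% of the sum in Amuc_0904 replicate 1 and 13.8% in replicates 2 and 3, against 22.8% to 23.5% in Control.

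The remaining single-chain S100 genes were mostly silent. Of 11 such genes, 7 were listed at 0 in every library, 4 were tested and none rose or fell. *S100A13*, which takes part in the release of FGF1, was the only abundant one, at 175, 199.7 and 193 TPM in Amuc_0904, against 163, 178 and 184 TPM in Control (log2 fold change 0.11, limma adjusted p 0.467). *S100A1*, best known from heart muscle, was at 1.58, 2.65 and 2.66 TPM in Amuc_0904, against 3.20, 2.94 and 3.08 TPM in Control (log2 fold change -0.32, limma adjusted p 0.371). Its groups did not overlap, but Amuc_0904 replicate 1 was the lowest library, and without it the log2 fold change was -0.16 (limma adjusted p 0.320, in a range of 0.266 to 0.595 over 15 alternatives). *S100A5* and *S100A3* had log2 fold changes of 0.17 and 0.15 (limma adjusted p 0.662 and 0.773), and without Amuc_0904 replicate 1 *S100A5* rose by 0.38 on the log2 scale (limma adjusted p 0.0233, in a range of 0.02333 to 0.9619 over 16 alternatives). All 7 fused-type S100 genes, which include *FLG* and other genes of the outer skin, were under 1 TPM in every library.

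Proteins that S100 dimers dock onto were examined as lists. Of 13 annexin genes 11 were tested and none rose or fell, with 4 higher and 7 lower by mean and a median log2 fold change of -0.02. The smallest p in that list belonged to *ANXA10*, at 97.2, 117 and 113 TPM in Amuc_0904, against 86.2, 87.5 and 90.0 TPM in Control (log2 fold change 0.31, limma adjusted p 0.229). *ANXA3* and *ANXA6* had log2 fold changes of -0.22 and -0.64 (limma adjusted p 0.232 for each). With *ANXA2*, 2 of the 11 had Amuc_0904 above Control without overlap (13.4% of all tested genes) and 2 had it below (7.59%). Without replicate 1, 3 of the 11 rose and 4 fell, where 9.34% of all tested genes rose and 8.85% fell. Of 13 intracellular partners, all tested, none rose or fell, and the median was 0.01. Without overlap, 5 of the 13 had Amuc_0904 above Control (13.4% of all tested genes) and 2 had it below (7.59%). At an unadjusted limma p under 0.05, 4 were higher (9.95% of all tested genes) and 2 lower (5.87%). Besides *CACYBP*, *NCL*, which encodes nucleolin, measured 495, 647 and 639.97 TPM in Amuc_0904, against 447, 460.1 and 492 TPM in Control (log2 fold change 0.34, limma adjusted p 0.248). *TRPV6*, a calcium channel of the gut epithelium that S100A10 with annexin A2 brings to the membrane, measured 4.76, 3.83 and 3.63 TPM in Amuc_0904, against 8.32, 6.06 and 4.78 TPM in Control (log2 fold change -0.52, limma adjusted p 0.270). Without replicate 1, 3 of the 13 partners rose and 2 fell, beside 9.34% and 8.85% of all tested genes.

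Receptors of secreted S100 proteins and other EF-hand genes were examined in the same way. Of 6 receptor genes 5 were tested and none rose or fell, with or without Amuc_0904 replicate 1. *AGER*, which encodes RAGE, stood at 5.27, 4.6 and 4.74 TPM in Amuc_0904, against 5.49, 6.01 and 5.17 TPM in Control (log2 fold change -0.16, limma adjusted p 0.450). The log2 fold change of *MCAM* was -0.89 (limma adjusted p 0.322) and -0.40 without Control replicate 3, with 17.8 TPM in Control replicate 3 but 6.07 and 5.36 TPM in Control replicates 1 and 2, against 4.79, 3.96 and 3.61 TPM in Amuc_0904. *ALCAM* had a log2 fold change of -0.17 (limma adjusted p 0.510). All 22 other EF-hand genes were tested and none rose or fell, with 14 higher and 8 lower by mean and a median of 0.03. *MYL12B*, a myosin light chain, and *NUCB1*, nucleobindin, had log2 fold changes of 0.16 and -0.31 (limma adjusted p 0.248 and 0.273), and without replicate 1, 6 of the 22 rose and 5 fell, beside 9.34% and 8.85% of all tested genes.

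**Figure D5:**
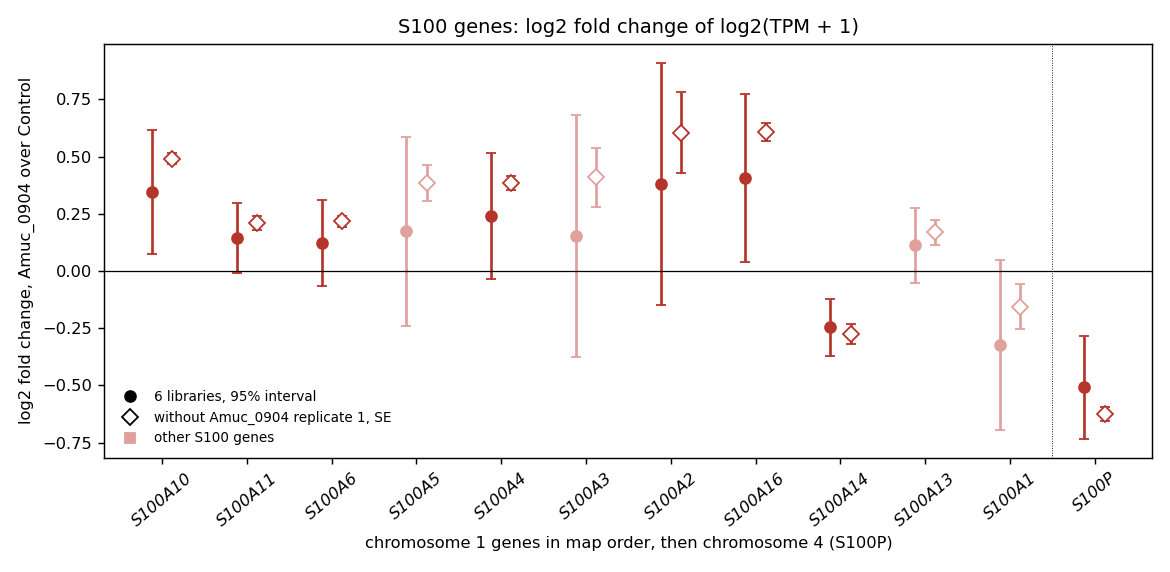
Log2 fold change of log2(TPM + 1), Amuc_0904 over Control (vertical axis), for the 12 tested S100 genes in map order (horizontal axis), dark red for the 8 members and light red for the other 4. Filled circles with 95% intervals use all 6 libraries and open diamonds with SE leave out Amuc_0904 replicate 1, which moves every member farther from 0.

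In the genome 9 of the 10 genes lie on chromosome 1 and *S100P* lies on chromosome 4 (chr4:6693069-6697170, plus strand). Positions are from GENCODE v29 on GRCh38, and the annotation behind the values may be another. Going up the chromosome, *S100A10* lies at chr1:151982915-151994390 and *S100A11* at chr1:152032506-152047907, followed at a distance by *S100A9* at chr1:153357854-153361027 and *S100A8* at chr1:153390032-153391188. *S100A6* at chr1:153534599-153536244, *S100A4* at chr1:153543613-153550136 and *S100A2* at chr1:153561108-153567890 lie close together, as do *S100A16* at chr1:153606886-153613145 and *S100A14* at chr1:153614255-153616986. *S100A16* and *S100A14* are neighbours on the minus strand and differed in direction by mean, at 0.41 and -0.25 on the log2 scale. Neither passed with all 6 libraries. *S100A4* overlaps *S100A3* on the same strand, and *S100A6* and *S100A11* overlap genes known only by clone names on the opposite strand, and these overlaps left no stretch of 75 bases shared between transcripts. Between the outermost S100 genes of chromosome 1 lie 47 other coding genes, mainly of the skin barrier, of which 4 were tested and none passed, with log2 fold changes between -1.09 (*SPRR1A*) and 1.14 (*SPRR3*), 2 genes named after their values were seen.

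Promoters were compared because the neighbours *S100A16* and *S100A14* differed in direction by mean, though neither passed with all 6 libraries. The 250 bases before each start in RefSeq (GRCh38.p14) gave 14 windows that covered all 10 genes. A TATA box, spelled TATAAA and searched on both strands, occurred in 5 of the 14 windows and in 10.8% of 34788 windows of all genes. The 5 windows belong to 4 genes, *S100A4*, *S100A8*, *S100A9* and *S100P*. Overlapping windows of *S100A8* (chr1:153391074-153391323 and chr1:153390977-153391226) hold the same TATA box. The 5 windows therefore hold only 4 separate boxes, and 5 of 14 counts the *S100A8* box more than once. The 30 bases that lie 35 to 6 bases before the start are shown for 1 window of each of these 4 genes, with motif letters in capitals.
S100P (chr4:6693843-6693872, plus strand): gctgcctTATAAAgcaccaagaggctgcca
S100A4 (chr1:153545812-153545841, minus strand): ggggTATAAAtaggtcagacctctGGGCCG
S100A8 (chr1:153391079-153391108, minus strand): aaccgcTATAAAaaggagctgcctctcagc
S100A9 (chr1:153357819-153357848, plus strand): gctgccTATAAAtgccgagcctgcacagct
The first capital run of each is the TATA box, 28 to 31 bases before the start, and the last 6 capitals of *S100A4* are the part within the window of a match to the NF-kB motif. These 4 genes did not share a direction, since *S100P* was lower and *S100A4* higher by mean, *S100A8* was at 0 and *S100A9* was not tested. A GC box (GGGCGG) occurred in 5 of the 14 windows, of 5 members, and in 42.6% of all windows. An NF-kB motif (GGGA and CC parted by 4 free bases) occurred in 4 of the 14, of 4 members (22.6% of all windows). An AP-1 motif (TGAGTCA or TGACTCA) occurred in 1 of the 14, of *S100A2* (4.21% of all windows). Each was searched on both strands, no match of one motif overlapped a match of another in these windows, and a match describes letters only.

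Genes with the pattern most like *S100P* were found by the Euclidean distance of centred log2(TPM + 1) over the 6 libraries. The nearest were *TSC22D3*, a glucocorticoid-induced transcriptional regulator, at a distance of 0.068, the unnamed ENSG00000274292 at 0.081 and *ATP10B*, a phospholipid-transporting ATPase, at 0.082. *TSC22D3* measured 50.4, 37.0 and 38.1 TPM in Amuc_0904, against 62.5, 57.8 and 60.1 TPM in Control. Like *S100P* it was lower in every Amuc_0904 library, with replicate 1 in between, which follows from its choice by distance.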

How the data were processed

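RNA-seq reads of 6 HT-29 libraries (TruSeq kit, paired ends) were trimmed by the authors in SeqPrep and Sickle. HISAT2 was the aligner and StringTie the assembler, and the submitters' processing notes also name RSEM and edgeR, all without versions. The deposited values are TPM per gene, made by the authors. The labels name a mouse build although the gene IDs are human, so the build is not known, and positions and sequences were taken from GENCODE v29 and RefSeq. Lines without values, 25 in all, were left out. TPM keep no depth, so no count test or counting interval was possible.

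log2(TPM + 1) of genes that reached 1 TPM in 3 or more libraries was fitted with limma 3.58.1 in R 4.3.3 (mean-variance trend, robust empirical Bayes, condition as the only term), and the script was tested on simulated data. Ratios within a library were compared by exact permutation with scipy 1.17.1. The genes and lists were chosen with earlier results of these data known. Named are the 10 genes, every other tested S100 gene, *ANXA1*, *ANXA2*, up to 3 genes with the smallest p in each further list, and the 3 profiles nearest to *S100P*. One item that this rule names is not reported here. Alternatives were other pseudocounts, filters, scalings and library weights, a replicate block and leaving out each library. The fibroblast and keratinocyte marker lists summed to 4.20 to 4.78 TPM and 12.8 to 18.9 TPM in Amuc_0904, against 3.84 to 4.97 TPM and 14.1 to 15.2 TPM in Control.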

Additional observations from a re-analysis of the deposited data

How the results depend on the processing

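The calls on S100 genes depended on 1 library. With library weights, which gave Amuc_0904 replicate 1 a weight of 0.224, 5 members rose and 2 fell, as when that library was left out; leaving out each library in turn gave 0 to 5 that rose and 0 to 2 that fell, and the other alternatives gave 0 in each direction. Over 8 members and 128 recomputed log2 fold changes none changed sign, 14 became significant and 114 stayed on their side of the threshold. Of 443 such values over 28 named genes 3 changed sign, all of *ANXA1*: -0.0459 with quantile normalization, and -0.0106 to 0.144 over the left-out libraries. Over all genes 10 rose and 24 fell. These counts were 3 and 15 with no filter on low values, 1315 and 1056 with library weights, 6 that rose with median-of-ratios scaling, and 2 to 1338 that rose and 10 to 1269 that fell over the left-out libraries. Same-numbered libraries did not deviate together (correlations 0.0458, -0.0392 and -0.0047), so the numbers were not taken as pairs; a replicate block gave 5 genes that rose, 16 that fell and no member. Rescaling the TPM outside mitochondrially encoded genes was added after seeing the data and changed no call on a member. A ratio of *S100A8* to *S100A9* was not run, because *S100A8* is at 0 throughout. The causes were not tested, and since depth is unknown the precision of low values such as those of *S100A9* cannot be given.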
